A study of Mus musculus with 4 samples.

Results

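The genes described here are 40 components and targets of the Wnt pathway, chosen by name. A gene's members were all probe sets on the array that the platform annotation assigned to that gene alone. Of the 40 listed genes, 39 had such a probe set, 71 probe sets in all, out of 20380 single-gene probe sets for 12393 genes. The array signals of Tcf7 were not analysed here. The arrays measured neural stem cell cultures, grown without serum and with EGF, whose source was the ganglionic eminences of C57/Bl6 mouse embryos at embryonic day 14.5. The 3 Olig1 knockout (KO) arrays were compared with 1 wild-type (WT) array. The titles number KO replicates 2 and 3 as 37 and 38. How the Olig1 allele was made, and whether the KO cultures came from separate embryos, is not given in the sources used here. The spread behind each p-value is that between these arrays and may be partly technical. It also holds an apparent difference in sex between KO replicate 1 and KO replicates 2 and 3, described below.

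Wnt proteins are secreted, lipid-modified ligands that bind Frizzled receptors together with the co-receptors Lrp5 and Lrp6. In cells without the ligand, a complex of Axin, Apc, casein kinase 1 and Gsk3 marks beta-catenin for destruction. With the ligand, Dishevelled proteins disable this complex, and beta-catenin enters the nucleus, where it turns Tcf and Lef factors from repressors held by Groucho (Tle) proteins into activators. In the forebrain the pathway is known as a signal of dorsal identity and of progenitor proliferation, and it is known to delay oligodendrocyte maturation.

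The values were MAS5 signals, 1 per probe set and array, which the authors had scaled to a trimmed mean of 500.18 to 500.25 in every array. Differences are KO minus WT on the log2(signal + 14.4) scale, which understates differences of dim probe sets. Background was set in each array at the highest of 27 control probe sets for bacterial transcripts that are dim in all arrays, which was 21.3, 39.99 and 87.8 in KO replicates 1, 2 and 3, and 30.5 in the WT array. Probe sets of different genes or of the same gene differ in brightness for technical reasons, so levels are compared between arrays only.

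Neural stem cell markers were above background in all 4 arrays for 9 of 10 genes. Sox2 gave 3829, 3759 and 4848 in KO replicates 1, 2 and 3, against 4073 in the WT array. Of 8 measured ventral forebrain markers, 4 (Dlx1, Gsx2, Nkx2-1 and Lhx8) were at background in all 4 arrays and none was above it in all 4. The dorsal markers Pax6 and Lhx2 were above background in all 4 arrays, and Neurog2 and Tbr1 in none. The Olig1 probe set gave 3840, 4438 and 8548 in the KO arrays, against 7618 in the WT array, so it did not separate the genotypes. The part of the gene this probe set reads is not given here, so it checks no label, and each direction below rests on the labels. KO replicate 1 and the WT array had Xist signals of 8472 and 9480, and KO replicates 2 and 3 had 160.9 and 46.5. Eif2s3y, a gene of the Y chromosome, gave 1.53, 653.8 and 1160.5 in KO replicates 1, 2 and 3, against 0.608 in the WT array. By these genes KO replicate 1 and the WT array looked female, and KO replicates 2 and 3 male. KO replicates 2 and 3 thus appeared to differ from the WT array in sex as well as in genotype. The median of the 18S ribosomal RNA controls was 7.24, 946 and 2823 in KO replicates 1, 2 and 3, against 4.64 in the WT array. The beta-actin controls, which compare the 3' with the 5' end of the transcript and so reflect RNA integrity, had a ratio of 1.25, 1.30 and 1.82, against 1.11. The same ratio for Gapdh was 0.794, 1.03 and 0.842, against 0.759. By Xist, Eif2s3y and the 18S controls the arrays fell into pairs that did not follow genotype. These were KO replicate 1 with the WT array, and KO replicates 2 and 3 together. Both 3'/5' ratios were higher in KO replicates 2 and 3 than in the other arrays, but left no clear gap between the pairs. Genotype can be compared within a pair only between KO replicate 1 and the WT array, and that value is given beside some of the results it moves.

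No Wnt pathway probe set was called different between the genotypes. The test was limma's moderated test over the 13575 probe sets that were left after the 40% with the lowest means had been removed, and 44 of the 71 members, from 27 of the 39 genes, were among them. At an adjusted p under 0.05, 0 of these 44 were called, against a background of 0% of all probe sets tested. The adjusted p was 0.99883 to 0.99936 for the members. At an unadjusted p under 0.05 there were 3 member probe sets (6.82%), from Wnt7b, Lrp6 and Nkd1, against a background of 2.39%. The KO arrays alone supplied the estimate of spread, and the median standard error over the members was 0.37 log2 units.

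The WT array lay below all 3 KO arrays for 12 of the 44 members (27.3%, against a background of 22.6%) and above all 3 for another 12 (27.3%, against a background of 23.3%). Over all 71 member probe sets these counts were 16 and 16, 22.5% each, against backgrounds of 25.1% and 20.5%. The median log2 difference was -0.051 for the 44 members and -0.011 for all probe sets tested. Set against the WT array singly, the members' medians were 0.0185, -0.0705 and 0.0073 for KO replicates 1, 2 and 3, where all probe sets tested gave 0.010, 0.0032 and -0.034. The members for which the WT array stood apart were thus split evenly between both directions over probe sets. With 1 probe set per gene, WT was below for 9 of 26 genes and above for 4. The shares over all genes are not given for that setting, so no lean is read from these counts.

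**Figure D1:**
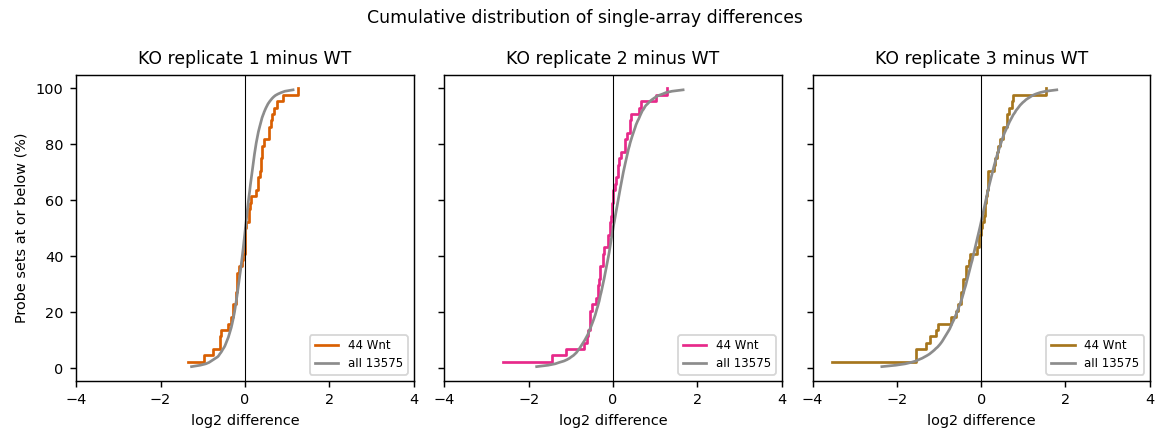
Cumulative share of probe sets (y axis, %) at or below a given log2 difference from the WT array (x axis), for each KO array. The coloured steps are the 44 Wnt pathway probe sets tested and the grey curves all 13575 probe sets, drawn from 0.5% to 99.5%. Both cross 50% within 0.1 log2 units of 0 in every KO array.

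Among the ligands, Wnt7b, known for patterning forebrain vessels and cortical axons, was lower in every KO array with both of its probe sets. The brighter probe set (1420892_at) gave 837, 594 and 464 in KO replicates 1, 2 and 3, against 961 in the WT array. The other (1420891_at) gave 233.6, 89.1 and 203.7 in the KO arrays, against 620.4 in the WT array, so the groups did not overlap and the WT array was at least 2-fold above each KO array. On the log2(signal + 14.4) scale 1 of 44 members (2.27%) had such a gap, against backgrounds of 0.228% for WT above and 0.192% for WT below. On the signals themselves, with no constant added, 1 probe set of Lrp6 had one too, in the opposite direction. The share of all probe sets with such a gap on the signals themselves is not given here. The log2 differences were -0.64 (SE 0.41) and -1.84 (SE 0.53), with a limma unadjusted p of 0.169 and 0.0113 and an adjusted p of 0.99883 for both. KO replicate 1 alone differed from the WT array by -0.20 and -1.36. A lower signal in such cultures cannot tell fewer cells of a type from less RNA per cell. The summed signals of neuronal, astrocyte and endothelial markers were also lower in the KO arrays, but the members of each list were not lower together. The sum of 7 neuronal markers was 1683, 1093 and 1051 in KO replicates 1, 2 and 3, against 2127 in the WT array, most of it from Map2, with 3 of the 7 above background in all arrays. Map2 and Rbfox3 were lower in every KO array, Tubb3 and Syt1 higher in every KO array, and the other 3 overlapped. That of 4 astrocyte markers was 2258, 1450 and 1115, against 2303, most of it from S100b. Of these 4, Aldh1l1 was lower in every KO array and the others overlapped. The sum of 4 endothelial markers was 172.7, 196.2 and 113.8, against 242.0, with 0 of the 4 above background in all arrays. Cldn5 was the only endothelial marker lower in every KO array. The sums of ventral forebrain and of microglia markers were higher in every KO array, and those of the other lists overlapped. The part of these cell types in the Wnt7b result was not tested.

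For the other tested ligand and secretion genes the WT array lay inside the KO range with every probe set. Wnt5a, a ligand known mainly for beta-catenin-independent signalling, gave 673, 336.6 and 258.5 with its brighter probe set in KO replicates 1, 2 and 3, against 436 in the WT array. Its other probe set gave 506, 381 and 322.6, against 334.4. KO replicate 1 was highest with both, and the WT array lay inside the KO range both times. The brighter probe set differed by -0.16 (SE 0.54) over all KO arrays and by 0.61 in KO replicate 1 alone. Wnt7a, the close relative of Wnt7b, gave 157.1, 114.9 and 171.7, against 116.3. Porcn, the acyltransferase that attaches the lipid to Wnt proteins, averaged 248.7 ± 32.7 (SD, n = 3) in the KO arrays and gave 250.6 in the WT array. Wnt4 (75.8, 9.84 and 72.9 in the KO arrays, against 54.0) was above background only in KO replicate 1 and the WT array, and Wnt3 was at background in all 4 arrays. Neither was tested.

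Most secreted inhibitors were too dim to test. Sfrp2, a decoy that binds Wnt proteins, was the only one tested, at 109.7, 85.7 and 145.9 in the KO arrays, against 137.0 in the WT array, with WT inside the KO range. Sfrp1, a decoy of the same family, had 4 probe sets, none of them tested, and the brightest gave 71.2, 59.9 and 109.9, against 85.0. A dimmer one (1448395_at) was lower in every KO array, at 39.6, 47.4 and 45.9, against 65.0, with KO replicate 3 at background. With the others the WT array lay inside the KO range. Dkk1, which blocks Lrp co-receptors, gave 54.6, 73.0 and 55.5, against 39.3, with KO replicate 3 at background. Dkk3, a divergent Dickkopf protein, gave 42.3, 114.9 and 56.6 with its brighter probe set, against 60.6. Wif1, which binds Wnt proteins outside the cell, was at background in all arrays, at 2.91 to 14.5 in the KO arrays and 8.65 in the WT array.

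Among the receptors, 12 of 20 probe sets were tested. The WT array was below all KO arrays for 3 of them (25%, against a background of 22.6%) and above all for 4 (33.3%, against a background of 23.3%). Fzd1, a Frizzled receptor, was lower in every KO array, and its mean difference was the most negative among the members tested. It gave 188.2, 110.5 and 15.3 in KO replicates 1, 2 and 3, against 328.8 in the WT array, and the value of KO replicate 3 was at background. The groups did not overlap, but the KO arrays differed from each other by 2.77 log2 units, more than the difference of -1.92 (SE 0.96, limma adjusted p = 0.99883) between KO and WT. The difference was -1.11 without KO replicate 3, -2.49 without KO replicate 1 and -0.76 for KO replicate 1 alone. In KO replicates 1 and 2 the dimmer Wnt7b probe set was lower relative to WT (-1.36 and -2.62) than Fzd1 (-0.76 and -1.46). Fzd7, another Frizzled receptor, gave 77.5, 103.8 and 45.3, against 124.7, again with KO replicate 3 at background, a difference of -0.68 (SE 0.45).

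Lrp6, the main Wnt co-receptor, was measured by probe sets that disagreed in KO replicates 2 and 3. The dimmer one (1451022_at) gave 141.5, 156.5 and 227.1 in KO replicates 1, 2 and 3, against 69.3 in the WT array. All KO values were above WT, by 1.15 log2 units on average (SE 0.38, limma unadjusted p = 0.020, adjusted p = 0.99883), and the difference was 0.90 in KO replicate 1 alone. The brighter one gave 502, 290.4 and 263.7, against 363, and had the WT array inside the KO range (-0.10, SE 0.44). In KO replicate 1 alone its difference was 0.45, the same direction as the dimmer one. KO replicate 3 was thus the highest KO array with 1 probe set and the lowest with the other. Lrp5, its relative, gave 26.1, 17.4 and 54.2 in KO replicates 1, 2 and 3, against 19.8 in the WT array. It was above the background of the array in KO replicate 1 only and was not tested.

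The remaining tested Frizzled genes differed from WT by less than 0.5 log2 units on average, with an unadjusted p above 0.05. Fzd9 gave 797, 341.3 and 349.8 in the 3 KO arrays, against 324.2 in the WT array. Its difference of 0.48 (SE 0.53) thus rested on KO replicate 1, in which it was 1.26, and it was 0.088 without that array. Fzd3, known for its part in axon guidance and planar polarity, gave 312, 241.7 and 248.4 with its brightest probe set, against 194.3. All KO values were above WT, and the difference of 0.42 (SE 0.34) exceeded the KO range of 0.35 log2 units, while the other tested probe sets differed by -0.23 and 0.053. The 3 probe sets of Fzd2 gave -0.076, -0.34 and -0.045, and WT lay above all KO arrays with the first and second of them. The second, at 151.0, 155.1 and 129.3 in the KO arrays against 186.9 in the WT array, also exceeded its KO range of 0.24 log2 units. Fzd4 gave -0.29, with WT inside the KO range. Fzd5 was at background in the WT array (25.3) and in KO replicate 3 (49.4), and gave 75.1 and 72.1 in KO replicates 1 and 2. It was not tested. Fzd8 (97.9, 38.0 and 36.6 in the KO arrays, against 47.0) was not tested either, and Fzd6 was at background in all 4 arrays with both probe sets.

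**Figure D2:**
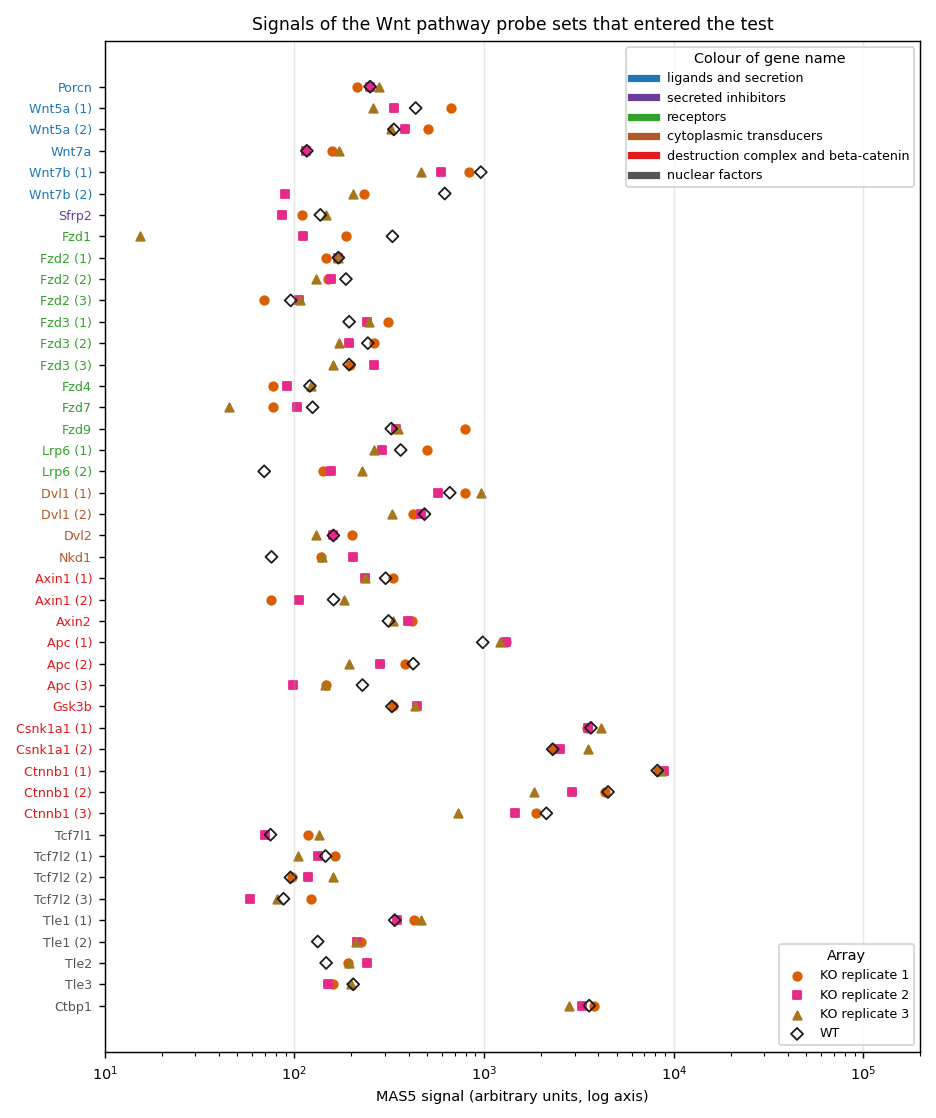
MAS5 signal (x axis, log scale) in each array for the 44 Wnt pathway probe sets tested, 1 row each, with filled symbols for the 3 KO arrays and open diamonds for the WT array. Numbers in brackets count the probe sets of a gene from the brightest down. For Wnt7b (2), Fzd1, Lrp6 (2) and Nkd1 the WT symbol lies clear of all KO symbols, and for Ctnnb1 (1) all 4 coincide.

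Inside the cell, Nkd1 stood above WT in every KO array. Nkd1 encodes Naked cuticle, a Dishevelled-binding inhibitor that is itself a known target of beta-catenin signalling. Its only probe set (1417278_a_at) gave 137.5, 204.7 and 139.0 in KO replicates 1, 2 and 3, against 75.7 in the WT array. The groups did not overlap, and the KO arrays averaged 160.4 ± 38.4 (SD, n = 3). The log2 difference was 0.93 (SE 0.37, limma unadjusted p = 0.0407, adjusted p = 0.99883), 0.75 for KO replicate 1 alone, and 0.76 to 1.02 when each KO array was left out. Axin2, the scaffold most often used as a read-out of the pathway, gave 416, 396.8 and 332.2 with its brighter probe set, against 313.5. This is a difference of 0.27 (SE 0.33, limma adjusted p = 0.99883). Its other probe set, not tested, went the opposite way, at 23.1, 5.57 and 4.42 in the KO arrays, against 38.4 in the WT array, and was at background in KO replicates 2 and 3.

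The upstream sequences of Fzd1, Nkd1 and Axin2 are shown because Fzd1 was lower and Nkd1 higher in every KO array, and both Nkd1 and Axin2 are feedback targets of Tcf factors. They are the 250 bases before the gene start in RefSeq (GRCm38.p6), 5′ to 3′ on the gene's own strand. Capitals mark matches to CTTTGA, 1 form of the core of the Tcf/Lef motif, on either strand. Fzd1 lies at chr5:4758217-4758466 on the minus strand, Nkd1 at chr8:88527383-88527632 on the plus strand and Axin2 at chr11:108920099-108920348 on the plus strand.
Fzd1: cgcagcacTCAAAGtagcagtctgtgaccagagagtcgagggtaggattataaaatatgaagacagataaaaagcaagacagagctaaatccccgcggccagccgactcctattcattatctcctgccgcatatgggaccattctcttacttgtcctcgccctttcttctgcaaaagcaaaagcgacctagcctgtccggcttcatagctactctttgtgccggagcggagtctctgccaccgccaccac
Nkd1: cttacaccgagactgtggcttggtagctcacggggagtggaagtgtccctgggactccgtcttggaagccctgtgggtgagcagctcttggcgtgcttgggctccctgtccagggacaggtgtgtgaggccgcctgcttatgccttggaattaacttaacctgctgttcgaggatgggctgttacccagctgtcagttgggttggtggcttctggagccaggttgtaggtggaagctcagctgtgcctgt
Axin2: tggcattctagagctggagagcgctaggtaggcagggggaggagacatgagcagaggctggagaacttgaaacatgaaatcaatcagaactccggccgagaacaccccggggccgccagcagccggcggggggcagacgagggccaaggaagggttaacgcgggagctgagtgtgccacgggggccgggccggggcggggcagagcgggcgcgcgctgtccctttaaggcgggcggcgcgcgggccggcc
The letters searched were CTTTGA and, for the other strand, TCAAAG, which do not overlap each other. Other forms of the core were not searched and are not in capitals. Fzd1 had 1 match, which starts 242 bases before the gene start, and the other windows had none. Of the 26 listed genes with such a window, 4 (Fzd1, Gsk3b, Dkk1 and Lef1) had a match, or 15.4%, against 15.8% of all 27025 genes. A match is a run of letters and no measured site, and its absence concerns only these bases.

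The Dishevelled genes, whose products relay the signal from Frizzled, had 3 tested probe sets, with the WT array inside the KO range for 2 of them and above it for the dimmer one of Dvl1. Dvl1 gave 793.5, 569.6 and 957.9 with its brighter probe set in the KO arrays, against 659.7, and 422.6, 464.8 and 327.9 with the other, against 485.2. These are differences of 0.19 and -0.27. Dvl2 gave 201.2, 160.4 and 129.6, against 160.5, a difference of 0.0064. Dvl3 was at background in all 4 arrays.

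The destruction complex and beta-catenin were measured by 14 probe sets, 12 of them tested. The WT array was below all KO arrays for 4 of the 12 and above all for 4, 33.3% each, against backgrounds of 22.6% and 23.3%. The probe sets of Ctnnb1, which encodes beta-catenin, disagreed. The brightest (1420811_a_at) gave 8219, 8884 and 8598 in KO replicates 1, 2 and 3, against 8199 in the WT array, a difference of 0.062 (SE 0.32). The second gave 4358, 2916 and 1825, against 4504 (-0.66, SE 0.51), and the third 1878, 1460 and 726, against 2130 (-0.75, SE 0.54). KO replicate 1 differed from the WT array by 0.0035, -0.048 and -0.18 with the 3 probe sets, so most of the differences of the dimmer probe sets came from KO replicates 2 and 3. KO replicate 3, which was lowest with these, also had the highest beta-actin 3'/5' ratio, but the Gapdh ratio was highest in KO replicate 2. The part of RNA integrity in this result was not tested.

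Apc, the large scaffold of the complex, showed the same kind of disagreement. Its brightest probe set gave 1312, 1308 and 1218 in the KO arrays, against 984 in the WT array, a difference of 0.37 (SE 0.32) with a KO range of only 0.11 log2 units. The second gave 385, 283.1 and 195.1, against 423 (-0.58, SE 0.43, and -0.13 in KO replicate 1 alone), and the third 147.4, 98.5 and 145.1, against 228.4 (-0.77, SE 0.37). With each of the 3, the WT array lay outside the KO range, below it with the first and above it with the others. Axin1, the limiting scaffold, gave 329.1, 236.6 and 234.7 with its brighter probe set, against 302.6, and 75.7, 106.3 and 183.3 with the other, against 160.8, and WT was inside the KO range with both. The dimmer Axin1 probe set differed by -0.44 (SE 0.48), and by -0.96 in KO replicate 1 alone. Gsk3b, the kinase that marks beta-catenin, gave 330.1, 444.6 and 433.4, against 326.8. KO replicate 1 and the WT array were close to each other, and KO replicates 2 and 3 were higher (0.28 in all, SE 0.35). Csnk1a1, the priming kinase, gave 3477, 3515 and 4125 with its brightest probe set, against 3660.

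Of the 12 genes with more than 1 tested probe set, 7 had log2 differences of opposite sign (Apc, Ctnnb1, Dvl1, Fzd3, Lrp6, Tcf7l2 and Wnt5a), or 58.3%, against 49.0% of the 3065 such genes on the array. Wnt7b, Tle1, Axin1, Fzd2 and Csnk1a1 kept 1 sign.

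**Figure D3:**
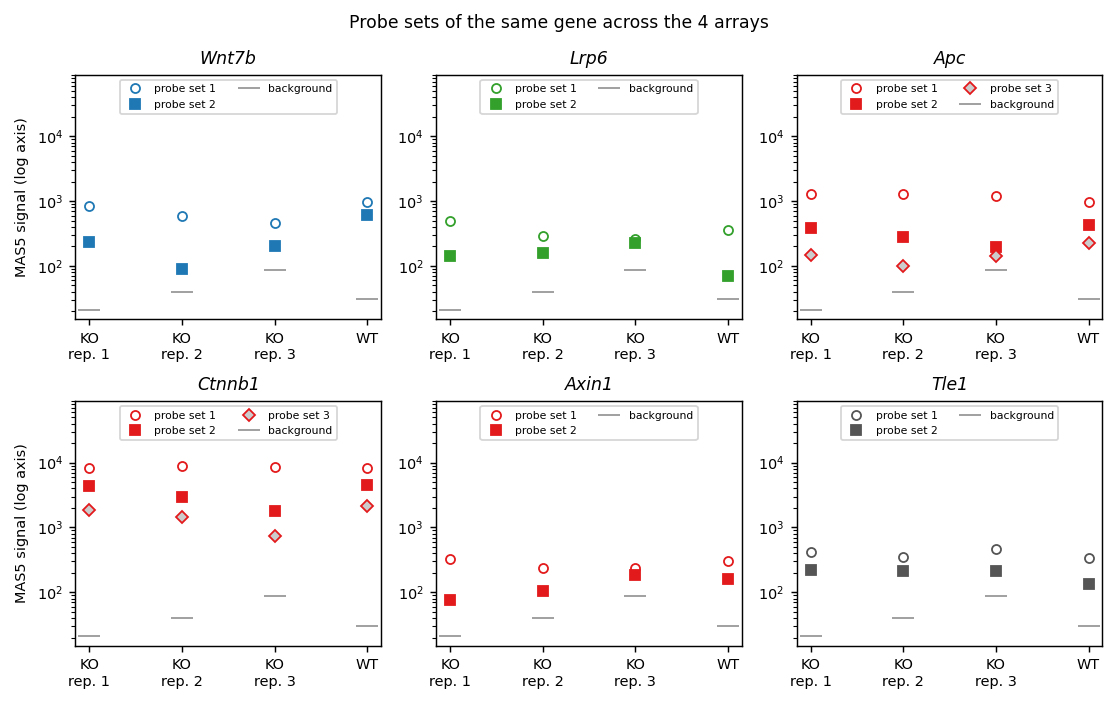
MAS5 signal (y axis, log scale) of each tested probe set of 6 genes in the 3 KO arrays and the WT array, with the highest bacterial control signal of each array as a grey bar. Both Wnt7b probe sets and the 2 dimmer ones of Ctnnb1 and Apc are highest in WT, while Lrp6 probe set 2 and both of Tle1 are lowest there.

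Of the nuclear factors, the Groucho co-repressor genes Tle1 and Tle2 were higher in all KO arrays. Tle1 gave 223.6, 212.7 and 211.3 with its second probe set (1422751_at) in KO replicates 1, 2 and 3, against 132.7 in the WT array. The KO arrays lay within 0.077 log2 units of each other, and the difference was 0.65 (SE 0.32, limma unadjusted p = 0.0837, adjusted p = 0.99883). Its brighter probe set gave 425.4, 348.4 and 467.8, against 338.1, a smaller difference in the same direction (0.27, SE 0.34). Tle2 gave 192.1, 242.0 and 194.7, against 147.0 (0.47, SE 0.34). Tle3 did not share this direction, at 159.3, 151.1 and 197.8 in the KO arrays, against 204.1 (-0.26, SE 0.34).

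The Tcf genes overlapped between the genotypes with most of their probe sets. Tcf7l1, a Tcf factor that acts mainly as a repressor, gave 117.7, 70.0 and 134.7 in the KO arrays, against 74.8, a difference of 0.41 (SE 0.42). Its other probe set, not tested, was at background in the WT array (21.7) and in KO replicate 3 (56.2), and gave 45.9 and 57.3 in KO replicates 1 and 2. Tcf7l2, which is also known for its part in oligodendrocyte maturation, had 3 tested probe sets with differences of -0.13, 0.32 and -0.058. Lef1 was at background in all arrays, at 3.93, 8.57 and 43.2 in the KO arrays and 1.19 in the WT array. Ctbp1, a co-repressor, gave 3820, 3288 and 2805, against 3586, with WT inside the KO range.

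**Figure D4:**
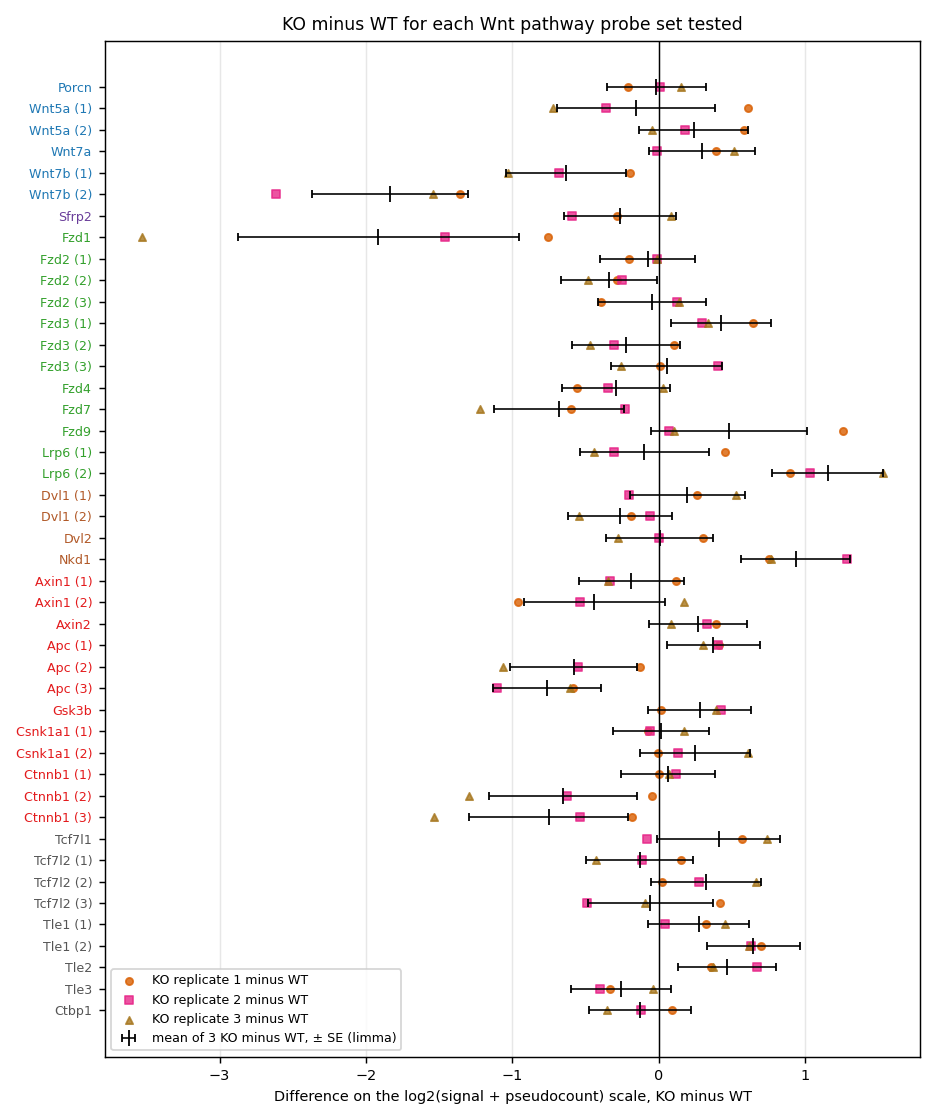
Difference from the WT array (x axis, log2 scale) of each KO array (coloured symbols) and of the KO mean (black tick, with a bar of ± 1 SE from limma) for the 44 Wnt pathway probe sets tested. Fzd1 and Wnt7b (2) lie farthest to the left, at -1.92 and -1.84, and Lrp6 (2) and Nkd1 farthest to the right, at 1.15 and 0.93.

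The spread of the members among the KO arrays was close to that of the array as a whole. The median range over the 3 KO arrays was 0.58 log2 units for the members and 0.57 for all probe sets tested. On the log2(signal + 14.4) scale, KO replicates 1 and 3 were at least 2-fold apart for 6 of 44 members (13.6%, against a background of 13.9%). KO replicate 3 was the lowest of the 4 arrays for 17 members (38.6%, against a background of 35.7%) and the highest for 13 (29.5%, against a background of 29.1%). On the same scale KO replicate 1 and the WT array were at least 2-fold apart for 2 members (4.55%, against a background of 2.01%), which were Wnt7b and Fzd9. These 2 went in opposite directions, Wnt7b lower and Fzd9 higher in KO replicate 1. On the signals themselves Axin1 (75.7 in KO replicate 1, against 160.8) and Lrp6 (141.5, against 69.3) were also at least 2-fold apart, each with its dimmer probe set. The background of 2.01% does not apply to that scale.

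A second list of Wnt genes held 107 genes not among the members, of which 94 were measured by 165 probe sets and 100 probe sets were tested. Of these, 0 passed the limma test and 4 (4%, against a background of 2.39%), from Cd44, Crebbp, Tnks2 and Siah1a, had an unadjusted p under 0.05. The hyaluronan receptor gene Cd44, a known target, gave 85.0, 68.7 and 44.0 in the KO arrays, against 210.9 in the WT array, with KO replicate 3 at background (-1.52, SE 0.40, adjusted p = 0.99883). Its brighter probe set was also lower in every KO array (-0.51, SE 0.33). Tnks2, a tankyrase gene acting on Axin, gave 180.1, 80.4 and 70.9 with its dimmer probe set, against 287.8, also with KO replicate 3 at background (-1.38, SE 0.52). Its brighter probe set went the opposite way, at 2979, 3272 and 2629 in the KO arrays, against 2595 in the WT array (0.18, SE 0.33). Cd44 and Tnks2 were chosen after their values were seen. The WT array was below all KO arrays for 26 and above all for 25, 26% and 25%, against backgrounds of 22.6% and 23.3%, and the median difference was -0.0060. The secretion factor gene Wls gave 1890.5, 1304 and 904 with its brightest probe set in KO replicates 1, 2 and 3, against 1293 in the WT array. The cyclin gene Ccnd1, a common target, gave 8798, 10126 and 6625 with its brightest probe set, against 8178. In both, WT lay inside the KO range, although the dimmest of 3 probe sets of Ccnd1 was higher in every KO array (0.40, SE 0.40). Wls and Ccnd1 were chosen after their values were seen.

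Of the second list, the probe sets that lay outside the KO range and above background in all arrays were ranked by size, and the first was that of the co-activator gene Crebbp. It gave 157.8, 79.7 and 174.1 in the KO arrays, against 36.0 in the WT array, a difference of 1.53 (SE 0.47, limma unadjusted p = 0.0145, adjusted p = 0.99883). The WT value of Crebbp was close to the background of 30.5 in that array. Siah1a, a ubiquitin ligase gene that can act on beta-catenin, was higher in all KO arrays with 2 of its 3 probe sets (1.04 and 1.02). Its brightest gave 0.21, with WT inside the KO range. Jun, a transcription factor gene and Wnt target, was lower with both probe sets (-1.11 and -0.21), as were the 2 dimmer of 3 for the receptor gene Tnfrsf19 (-0.87 and -0.33), whose brightest gave 0.0078. Nlk, a kinase gene acting on Tcf factors, gave 0.79 with 1 probe set and -0.087 with another, and Csnk2a1, the catalytic subunit of casein kinase 2, ranged from -0.28 to 0.87 over its 5 tested probe sets. Id2, a target, gave -0.24, -0.79 and 0.59. The others were Fbxw11 (-0.84), Tbl1x (-0.69), Csnk1d (-0.69) and Csnk1g1 (0.69). Fbxw11, Tbl1x and Csnk1d each had other tested probe sets nearer to 0 or of the opposite sign.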

How the data were processed

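The authors deposited linear MAS5 intensity values, 1 for each probe set in each array, per the submitters' processing notes, without a version. The table held 22690 probe sets, 64 of them controls, and all values were above 0. By the platform annotation 20393 probe sets had 1 gene symbol, 691 had several and 1606 had none; symbols were updated through a RefSeq table of GRCm38.p6. Here the intensities were turned into log2(signal + 14.4), the pseudocount being 0.1 times the median of all values, with no further normalization. The 40% of the non-control probe sets with the lowest mean were left out. KO and WT were compared by limma 3.58.1 (lmFit and eBayes, two-sided, Benjamini-Hochberg over 13575 probe sets, threshold 0.05) in R 4.3.3, with 2 residual degrees of freedom and 4.75 prior ones. The WT array was assumed to vary like the KO arrays, and the number of arrays limits precision. The fit was tested on simulated data. Members, lists and tests were chosen with earlier results of these data known. All listed genes are named; of the second list, the 12 probe sets furthest from WT among those outside the KO range and above background in all arrays. Alternatives covered scaling, pseudocount, filter, gene-level fits, eBayes settings, KO arrays left out and the pair of arrays as a block.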

Additional observations from a re-analysis of the deposited data

How the results depend on the processing

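No Wnt probe set of either list passed the test under any of 13 alternatives, in which 0 to 4 members had an unadjusted p under 0.05. Over the whole array, 0 to 5 probe sets passed when a KO array was left out; the 5, none a member, came without KO replicate 1. Xist and Eif2s3y, which separate the array pairs, were among the 5. No paired analysis was possible because the labels give no replicate numbers that the genotypes share. The block of the array pair equals KO replicate 1 minus WT. The members' median of -0.051 was 0.0133 with the lowest 60% left out, 0.0098 with 1 probe set per gene, 0.0185 with the block and -0.076 to 0.0005 with a KO array left out. The counts of WT below and above all KO arrays, 12 and 12, were 7 and 5 with the lowest 60% left out, fewer probe sets being tested. They were 9 and 4 with 1 probe set per gene and 6 and 8 with gene means. With a KO array left out, 14 to 15 were below and 12 to 20 above. The shares over all genes or probe sets are not given for these alternatives. For 37 of the 44 probe sets tested, 415 of 439 recomputed differences kept their sign and 24 did not, none of them past the threshold. With gene means the sign turned for Wnt5a (0.040), Lrp6 (0.53), Dvl1 (-0.036), Dvl2 (-0.082), Axin2 (-0.43), Apc (-0.33) and Ctnnb1 (-0.45), since their probe sets disagree. With the block it turned for Wnt5a (0.61), Lrp6 (0.45), Axin1 (0.12), Csnk1a1 (-0.074), Tcf7l2 (0.15) and Ctbp1 (0.091), and with quantile normalization for Porcn (0.048), Csnk1a1 (-0.0020) and Ctnnb1 (-0.098). Median centring turned Porcn (0.0033). The tested probe sets outside the 37 all had the WT array inside the KO range. Among them the block turned a dimmer probe set each of Fzd3 (-0.23 to 0.10), Csnk1a1 (0.25 to -0.0030) and Tcf7l2 (-0.058 to 0.42). The other alternatives are not given for them. With a KO array left out, Porcn ran over -0.10 to 0.078, Wnt5a over -0.54 to 0.13, Lrp6 over -0.38 to 0.071, Dvl2 over -0.14 to 0.15, Csnk1a1 over -0.066 to 0.057 and Tcf7l2 over -0.27 to 0.018. The cause of the turns under scaling, block and array left out was not tested.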
